A study of Mus musculus with 8 samples.

Results

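The inflammatory chemokines described here are 8 secreted or membrane-tethered attractants of leukocytes, the CC chemokines Ccl2, Ccl3, Ccl4, Ccl5 and Ccl12 and the CXC chemokines Cxcl1, Cxcl10 and Cxcl16. They were taken by gene symbol, and all 8 were found among the 23393 named genes of the count files. Read counts came from bulk prefrontal cortex of C57BL6/J mice, with ages given as 6 to 8 weeks, in 8 libraries of 2 per group. All groups were injected with AAV9, an adeno-associated virus that infects neurons and other brain cells. AAV9 is thus common to controls and knockdown groups, but what it carried is not. The control virus carried green fluorescent protein (GFP) and the other viruses a short hairpin RNA (shRNA). No group is described as carrying a control hairpin, so hairpin expression as such and loss of its target cannot be told apart. The groups are a pair of GFP controls for Adnp, a group titled Adnp (shAdnp), a second pair of GFP controls for Pogz, and a group titled Pogz (shPogz). The labels give no promoter for the hairpins and no cell type that takes up the virus. The treatment label of every knockdown sample names a hairpin against ASH1L, whereas titles and design text name Adnp and Pogz, and groups follow the titles. The series title names ADNP and POGZ as risk factors of neurodevelopmental disorders and asks after a mechanism they share.

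Chemokines are small proteins that guide leukocytes along a gradient by binding G protein-coupled receptors. CC chemokines with inflammatory roles draw mainly monocytes and T cells, Cxcl10 and Cxcl16 draw activated T cells and natural killer (NK) cells, and Cxcl1 draws neutrophils. In the resting brain these genes are mostly low, and after injury or infection microglia, astrocytes, endothelium and arriving leukocytes can all make them. Their transcription is known to be driven by NF-kB, by interferon signalling, or by both.

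The 5 CC members and Cxcl16 lie on chromosome 11, and Cxcl1 and Cxcl10 lie on chromosome 5 (GRCm38, the assembly behind build mm10, with GENCODE M21 genes). Ccl2 spans chr11:82035571-82037453 on the plus strand, and Ccl12 lies further along the same strand at chr11:82101845-82103400. Ccl5 (chr11:83525778-83530518, minus strand), Ccl3 (chr11:83647844-83649355, minus strand) and Ccl4 (chr11:83662584-83664683, plus strand) form a second cluster. Cxcl16 lies apart at chr11:70453983-70459984 on the minus strand. Cxcl1 is at chr5:90891241-90893115 on the plus strand and Cxcl10 at chr5:92346638-92348889 on the minus strand. To show which interferon and NF-kB motifs lie before genes of this group, the 250 bases before the RefSeq start (GRCm38.p6) of the 4 members with an entry, Ccl12, Ccl3, Cxcl1 and Cxcl10, are shown 5′ to 3′ along the gene's strand, with capitals for any match to the motifs searched on both strands. The windows are chr11:82101595-82101844, chr11:83649379-83649628, chr5:90890995-90891244 and chr5:92348890-92349139, in that order. Ccl2, Ccl4, Ccl5 and Cxcl16 had no entry.
Ccl12: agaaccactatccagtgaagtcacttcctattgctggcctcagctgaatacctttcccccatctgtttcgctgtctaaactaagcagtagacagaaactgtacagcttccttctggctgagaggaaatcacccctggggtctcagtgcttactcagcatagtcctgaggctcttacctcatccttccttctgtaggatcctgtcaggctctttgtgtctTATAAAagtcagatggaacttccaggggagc
Ccl3: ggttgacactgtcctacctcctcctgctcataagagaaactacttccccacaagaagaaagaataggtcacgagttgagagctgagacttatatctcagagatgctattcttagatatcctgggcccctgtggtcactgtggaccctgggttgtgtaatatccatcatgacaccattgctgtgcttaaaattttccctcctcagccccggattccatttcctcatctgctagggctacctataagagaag
Cxcl1: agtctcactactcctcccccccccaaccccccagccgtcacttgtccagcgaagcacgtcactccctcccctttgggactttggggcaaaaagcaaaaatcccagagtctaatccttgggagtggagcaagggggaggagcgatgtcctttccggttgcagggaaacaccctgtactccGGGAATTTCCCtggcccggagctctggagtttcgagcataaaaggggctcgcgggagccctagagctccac
Cxcl10: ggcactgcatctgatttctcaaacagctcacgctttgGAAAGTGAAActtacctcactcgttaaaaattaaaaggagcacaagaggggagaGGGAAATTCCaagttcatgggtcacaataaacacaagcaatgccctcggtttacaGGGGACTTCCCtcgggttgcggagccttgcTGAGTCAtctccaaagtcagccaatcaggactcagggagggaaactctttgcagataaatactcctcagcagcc

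Of the 4 windows, that of Cxcl10 held the most matches. It held the core of the interferon-stimulated response element (ISRE, printed above as GAAAGTGAAA) at position -213 from the gene start, a motif found in 2.98% of 32851 promoter windows of the same length. It also held the NF-kB consensus at -159 and again at -104, the latter overlapped by 1 further match at -103, and the AP-1 motif TGANTCA at -74. The NF-kB consensus occurred in 7.25% of the windows and the AP-1 motif in 6.75%. Cxcl1 had the NF-kB consensus at -71 with an overlapping match at -70, and Ccl12 had only TATAAA, at -31, which 12.4% of windows held. Ccl3 had no match, and TTCNNNGAA, the motif bound by STAT dimers (7.02% of windows), was in none of the 4. A match describes letters in these windows and is no measurement of binding.

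Total counts in named genes ran from 27501722 to 69002749 per library. The hairpin targets did not pass the test: Adnp was at a log2 fold change of -0.27 (SE 0.19, adjusted p = 0.768) in shAdnp and Pogz at -0.32 (SE 0.16, adjusted p = 0.667) in shPogz, by edgeR's quasi-likelihood test with Benjamini-Hochberg adjustment. In shAdnp replicate 1, 7.62% of counts fell to Rn45s, the precursor of ribosomal RNA, against 0.134% to 0.740% in the other libraries. Levels below are in CPM, read counts scaled by library size with TMM factors. In bulk tissue, fewer or more cells of a type cannot be told apart from less or more RNA per cell.

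Summed over the 8 genes, chemokine transcripts were scarce in the controls and higher in both knockdown groups. The sum was 5.72 and 25.5 CPM in the Adnp-set controls (replicates 1 and 2), 53.5 and 79.9 in shAdnp, 23.8 and 38.8 in Pogz-set controls, and 87.3 and 291 in shPogz. The lowest knockdown library was above the highest control library, and shPogz replicate 2 stood far above the rest. All 8 members passed the filter on low counts, and the fitted log2 fold change was above 0 for 8 of 8 in each comparison of a hairpin with its own controls, where 47.7% (Adnp set) and 46.4% (Pogz set) of the 17415 tested genes were above 0. The median over the members was 2.09 in the Adnp set and 3.01 in the Pogz set, beside -0.01 and -0.02 over all tested genes. Both knockdown libraries were above both own controls for 7 of 8 members in the Adnp set (all but Cxcl1) and for 8 of 8 in the Pogz set, against 20.4% and 19% of tested genes. No member passed adjusted p under 0.05 in either comparison by edgeR, and no other gene did (0% of those tested). At an unadjusted p under 0.05, 4 of 8 members were higher in the Adnp set (6.67% of tested genes) and 5 of 8 in the Pogz set (4.05%), and none was lower (1.69% and 2.65% of tested genes). DESeq2 called 3 members in the Adnp set and 4 in the Pogz set, where it called 2.39% and 0.574% of tested genes higher, and limma-voom called 0 in both.

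**Figure D1:**
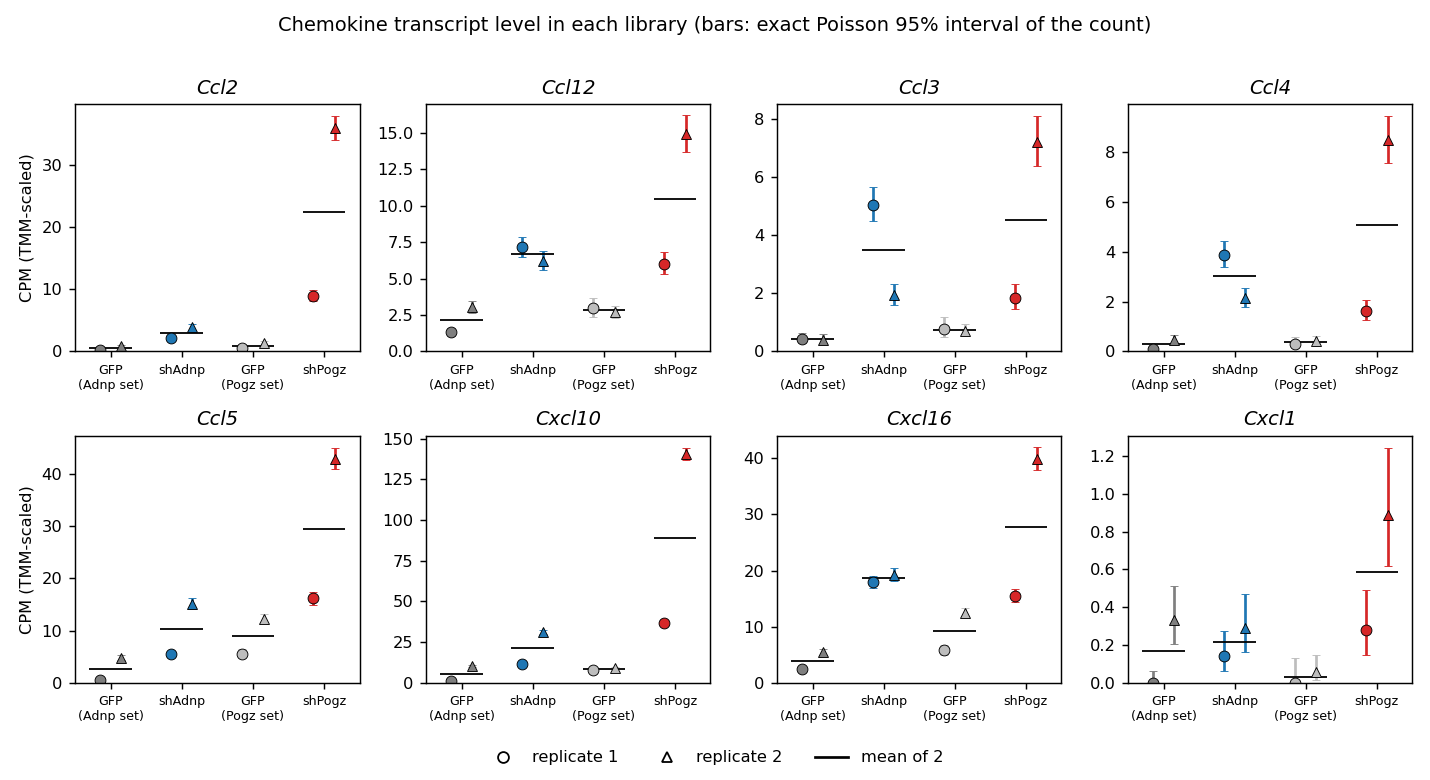
Level of each chemokine (y axis, TMM-scaled CPM, its own scale per panel) in the 8 libraries, by group, with circles for replicate 1, triangles for replicate 2, error bars for the exact Poisson 95% interval of the count and a line at the mean of 2. For all 8 genes shPogz replicate 2 is the highest library, and for all but Cxcl1 both shAdnp libraries lie above both of their controls.

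Ccl2 and Ccl12 are ligands of the monocyte receptor CCR2, and Ccl2 had the largest fitted difference of the 8 genes in the Pogz set. Ccl2, the main attractant of classical monocytes, was at 0.164 and 0.780 CPM in the Adnp-set controls, 2.07 and 3.87 in shAdnp, 0.495 and 1.31 in Pogz-set controls, and 8.89 and 35.9 in shPogz. Both shPogz libraries were above all 6 others, and no control reached the lower shAdnp library. The fitted log2 fold change of Ccl2 was 2.64 (SE 1.07, adjusted p = 0.610, edgeR) in the Adnp set and 4.53 (SE 1.07, adjusted p = 0.667) in the Pogz set, the latter ranking 6 among all tested genes by size. Ccl12, a CCR2 ligand of mice, was at 1.31 and 3.02 CPM in the Adnp-set controls, 7.15 and 6.23 in shAdnp, 2.97 and 2.69 in Pogz-set controls, and 6.01 and 14.9 in shPogz. It was the steadiest member between replicates of shAdnp after Cxcl16, with a ratio of higher to lower replicate of 1.15. Its log2 fold change was 1.62 (SE 0.50, adjusted p = 0.401) in the Adnp set and 1.89 (SE 0.50, adjusted p = 0.667) in the Pogz set.

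Ccl3, Ccl4 and Ccl5 draw T cells and macrophages, and Ccl3 and Ccl5 bind the receptor CCR1. Ccl3 was nearly equal within each control pair, at 0.425 and 0.398 CPM in the Adnp set and 0.778 and 0.696 in the Pogz set, and was 5.04 and 1.93 in shAdnp and 1.85 and 7.20 in shPogz. Ccl4 followed the same order of libraries in the knockdown groups, with 0.0981 and 0.446 CPM in the Adnp-set controls, 3.88 and 2.14 in shAdnp, 0.283 and 0.426 in Pogz-set controls, and 1.64 and 8.49 in shPogz. For both genes all 4 knockdown libraries were above all 4 controls. The log2 fold change of Ccl3 was 3.08 (SE 0.72, adjusted p = 0.306, edgeR) in the Adnp set and 2.62 (SE 0.71, adjusted p = 0.667) in the Pogz set. That of Ccl4 was 3.45 (SE 0.96, adjusted p = 0.369) in the Adnp set, the largest of the 8 there, and 3.77 (SE 0.97, adjusted p = 0.667) in the Pogz set. The RefSeq locus of Ccl4 overlaps Ccl3 on the opposite strand by 755 bases, GENCODE shows no overlap, and the strand setting of the counting is not given in the sources used here, so a part of the reads could be shared.

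Ccl5, made by activated T and NK cells as well as by glia, separated the groups less. It was at 0.507 and 4.84 CPM in the Adnp-set controls, 5.51 and 15.1 in shAdnp, 5.59 and 12.3 in Pogz-set controls, and 16.2 and 43.0 in shPogz. The upper library of each control pair came close to the lower library of its knockdown group, at ratios of 1.14 in the Adnp set and 1.32 in the Pogz set, and the Adnp-set controls themselves differed 9.55-fold. Its log2 fold change was 1.94 (SE 1.21, adjusted p = 0.762, edgeR) in the Adnp set and 1.70 (SE 1.17, adjusted p = 0.708) in the Pogz set. Of the 25-base words in its transcripts 3.23% also occur in transcripts of 9 other genes, so a small part of its reads may be ambiguous.

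Cxcl10, the interferon-induced ligand of CXCR3 on activated T and NK cells, reached the highest CPM of the 8 genes. Its level was 0.850 and 10.3 CPM in the Adnp-set controls, 11.7 and 31.2 in shAdnp, 7.85 and 8.88 in Pogz-set controls, and 37.0 and 141 in shPogz. The Pogz-set controls agreed within 1.13-fold and lay far below both shPogz libraries, whereas the Adnp-set controls differed 12.1-fold and the upper one came within 1.14-fold of shAdnp replicate 1. The log2 fold change was 1.94 (SE 1.29, adjusted p = 0.782, edgeR) in the Adnp set and 3.40 (SE 1.35, adjusted p = 0.667) in the Pogz set. Cxcl10 lies wholly within Art3, a gene on the opposite strand with overlapping exons. Art3 stayed between 3.06 and 4.46 CPM in the 8 libraries, a range far narrower than that of Cxcl10. Because the strand setting is not given, this does not show which gene the reads in shared exons came from.

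Cxcl16 is a transmembrane chemokine and scavenger receptor whose soluble form, released by the proteases ADAM10 and ADAM17, binds CXCR6. It was at 2.37 and 5.46 CPM in the Adnp-set controls, 18.0 and 19.2 in shAdnp, 5.80 and 12.5 in Pogz-set controls, and 15.5 and 39.9 in shPogz. The shAdnp replicates were within 1.07-fold of each other and at least 3.29-fold above the upper control, while shPogz replicate 1 was 1.24-fold above the upper Pogz-set control. Its log2 fold change was 2.25 (SE 0.68, adjusted p = 0.449, edgeR) in the Adnp set and 1.58 (SE 0.66, adjusted p = 0.667) in the Pogz set. Zmynd15, which overlaps Cxcl16 by 552 bases on the opposite strand, was likewise lowest in Adnp-set GFP replicate 1 and highest in shPogz replicate 2, at 0.180 and 0.494 CPM in the Adnp-set controls, 1.60 and 1.94 in shAdnp, 0.849 and 1.82 in Pogz-set controls, and 1.76 and 4.38 in shPogz. Without the strand setting, reads of the pair in the shared stretch cannot be told apart.

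Cxcl1, the neutrophil attractant that binds CXCR2, was near the limit of detection. Its counts were 0 and 21 in the Adnp-set controls, 8 and 16 in shAdnp, 0 and 4 in Pogz-set controls, and 12 and 34 in shPogz. The libraries at 0 allow up to 0.0491 CPM (Adnp-set replicate 1) and 0.106 CPM (Pogz-set replicate 1), taking 3 counts as the limit, which covers counting error only. The control with 21 counts, 0.334 CPM, was above both shAdnp libraries, at 0.139 and 0.288 CPM, so these groups overlapped and the log2 fold change was 0.34 (SE 1.26, adjusted p = 0.965, edgeR). In the Pogz set both shPogz libraries, at 0.281 and 0.891 CPM, were above both controls, and the log2 fold change of 3.85 (SE 1.52, adjusted p = 0.667) rests on 4 counts in the controls.

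The members were then fitted for both hairpins together, with a term for set, which uses the same libraries as the 2 comparisons above. The log2 fold change was 3.68 (SE 0.81, adjusted p = 0.188, edgeR) for Ccl2, 3.61 (SE 0.62, adjusted p = 0.142) for Ccl4 and 2.85 (SE 0.48, adjusted p = 0.142) for Ccl3. It was 2.68 (SE 0.92, adjusted p = 0.339) for Cxcl10, 1.91 (SE 0.45, adjusted p = 0.201) for Cxcl16 and 1.76 (SE 0.33, adjusted p = 0.142) for Ccl12. These 6 genes had every knockdown library above every control library, which held for 4.01% of tested genes, and had an unadjusted p under 0.05 and a higher level, as did 8.84% of tested genes, while no member was lower (3.62%). Ccl5, at 1.82 (SE 0.75, adjusted p = 0.407), and Cxcl1, at 1.78 (SE 1.08, adjusted p = 0.542), overlapped between controls and knockdown libraries. No member and no other gene passed adjusted p under 0.05 (0%), while DESeq2 called 6 members, and 4% of tested genes higher, and limma-voom called 0. The DESeq2 calls were Ccl2, Ccl3, Ccl4, Ccl12, Cxcl10 and Cxcl16.

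**Figure D2:**
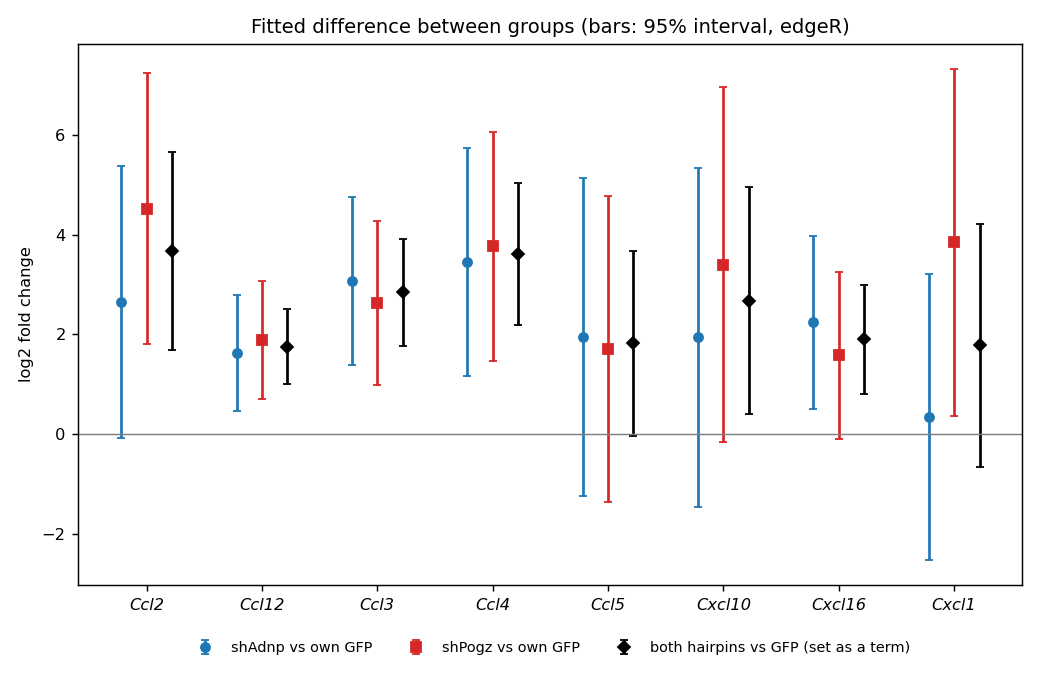
Fitted log2 fold change (y axis) of each chemokine (x axis) in shAdnp against its controls (circles), in shPogz against its controls (squares) and for both hairpins with set as a term (diamonds), with the 95% interval of edgeR's fit. The joint values run from 1.76 for Ccl12 to 3.68 for Ccl2 with narrower intervals, and the intervals of the 2 single comparisons overlap for every gene.

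The response to the Pogz hairpin minus that to the Adnp hairpin was not resolved for any member. At an unadjusted p under 0.05, 0 of 8 members differed (1.1% of tested genes were higher and 2.41% lower), 5 of 8 had a difference above 0 (46.9%), every adjusted p was at least 0.978 by edgeR, and DESeq2 and limma-voom called 0. Ccl2 had a difference of 1.88 in log2 units with a 95% interval from -1.86 to 5.62, and Cxcl1 one of 3.51 with an interval from -1.07 to 8.10. Cxcl10 had a difference of 1.46 (-3.24 to 6.15) and Ccl4 one of 0.31 (SE 1.34). The remaining differences were 0.27 (-1.36 to 1.90) for Ccl12, -0.24 (-4.55 to 4.07) for Ccl5, -0.45 (-2.72 to 1.82) for Ccl3 and -0.67 (-3.02 to 1.69) for Cxcl16. All 8 intervals include 0 and are wide, so a difference of several-fold would not have been resolved with 2 libraries per group.

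The control pairs were also compared, because a set is confounded with its hairpin. The Pogz-set GFP libraries were above the Adnp-set GFP libraries in fitted value for 7 of 8 members (51.8% of tested genes), with a median log2 difference of 0.71, and Cxcl1 was at -2.07 (SE 1.61). Both Pogz-set controls were above both Adnp-set controls for 3 members, Ccl3, Ccl5 and Cxcl16, where 21.2% of tested genes did so. The largest of these were 1.76 (SE 1.21, adjusted p = 0.767, edgeR) for Ccl5 and 1.24 (SE 0.67, adjusted p = 0.717) for Cxcl16. No member passed adjusted p under 0.05 (0.00574% of tested genes did) or an unadjusted p under 0.05 (4.65% were higher and 2.7% lower), and DESeq2 and limma-voom called 0 members.

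Single libraries carried much of the size of these differences. shPogz replicate 2 was the highest of the 8 libraries for 8 of 8 members, as it was for 22.7% of all tested genes, at 2.48 times (Ccl12) to 5.18 times (Ccl4) the level of shPogz replicate 1. Without it the median log2 fold change of the members in the Pogz set was 1.74, and the 8 values ran from 0.74 (Cxcl16) to 3.22 (Ccl2). Without shPogz replicate 1 the median was 3.72, with replicate 2 as the only shPogz library. A group left with 1 library has no spread of its own, so only effect sizes are given for left-out libraries. GFP replicate 1 of the Adnp set was the lowest library for 6 of 8 members, against 17.6% of all tested genes. Without it the median of the Adnp set was 1.47 and Cxcl1 turned to -0.63. Without GFP replicate 2 of the Adnp set the median was 4.25, and Ccl5 and Cxcl10 were at 4.34 and 4.65. Within shAdnp the replicates did not share 1 order, since replicate 1 was higher for Ccl3, Ccl4 and Ccl12 and replicate 2 for the other 5.

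**Figure D3:**
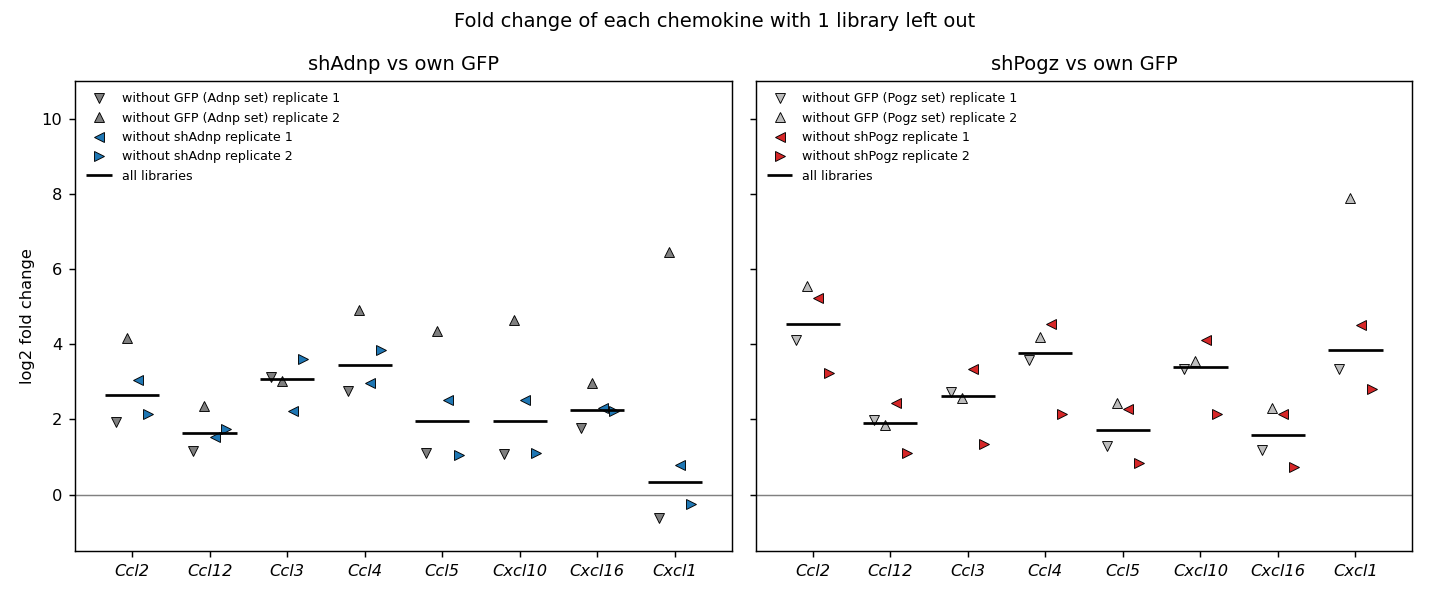
Log2 fold change (y axis) of each chemokine (x axis) with all libraries (line) and with each of the 4 libraries of the comparison left out in turn (triangles), for shAdnp (left) and shPogz (right) against their own controls. Every value is above 0 except for Cxcl1 in the Adnp set, which is at -0.63 without GFP replicate 1 and at -0.25 without shAdnp replicate 2.

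Levels of different genes were set side by side as CPM per kilobase of exon, as shares of the summed value of the 8 genes in a library. Ccl12 led in both Adnp-set controls, at 49.0% and 29.5% of the sum, and Ccl5 led in both Pogz-set controls, at 31.2% and 44.7%. In shAdnp the leading gene was Ccl12 in replicate 1 (29.9%) and Ccl5 in replicate 2 (27.7%). In shPogz it was Ccl5 in replicate 1 and Cxcl10 in replicate 2 (30.8%). The share of Ccl2 set shPogz apart, at 12.5% and 15.6% against 2.33% to 5.98% in the other 6 libraries. Cxcl1 was last in every library, at no more than 0.934%. These shares are a description of 8 libraries, and depend on the exon length used, which ran from 537 bases for Ccl12 to 3021 for Cxcl16.

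**Figure D4:**
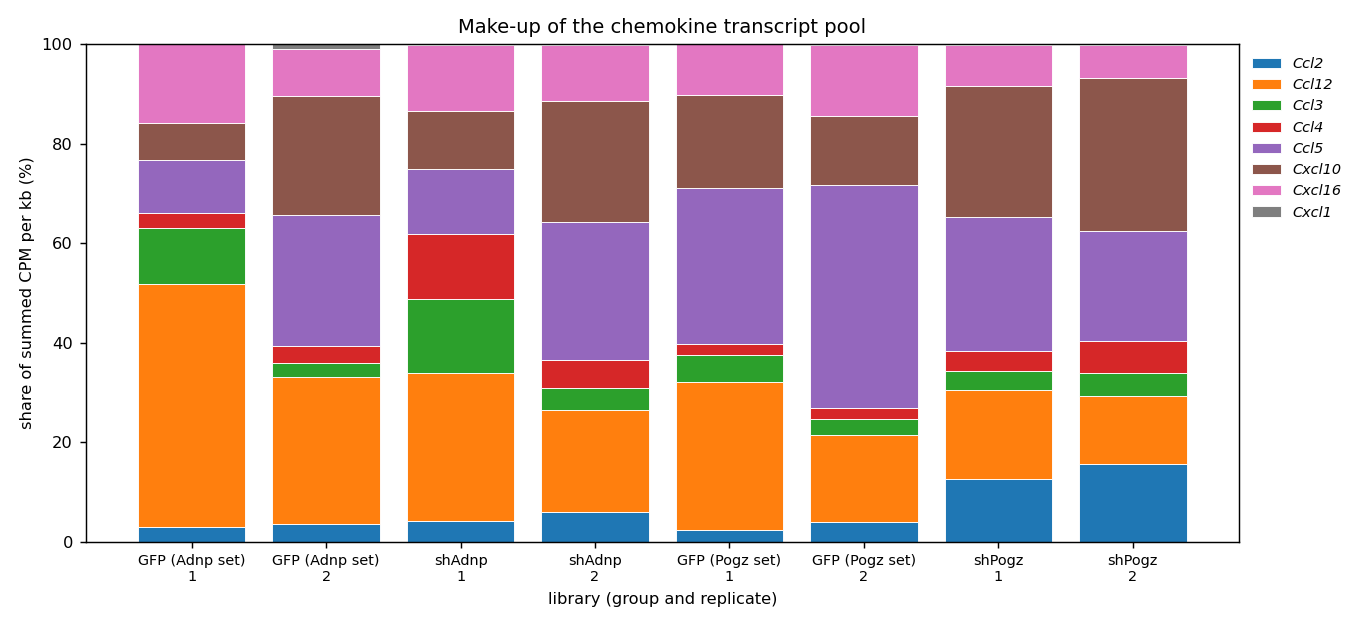
Share of each chemokine (y axis, percent of the summed CPM per kilobase of the 8 genes) in each library (x axis, group and replicate). The Ccl2 segment is 12.5% and 15.6% in the shPogz libraries and at most 5.98% in the others, and Ccl12 takes 49.0% in Adnp-set GFP replicate 1.

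For each member, the genes closest to it over the 8 libraries were found by the root mean square difference of log2 CPM (prior count 2) after centring each gene on its mean, a measure of likeness with no test. The nearest to Cxcl16 was Irf8, which encodes a myeloid transcription factor, at 0.16, and the nearest to Ccl12 were Fcgr1 (a high-affinity Fc receptor) at 0.19 and Cd86 (a costimulatory ligand of antigen-presenting cells) at 0.21. Nearest to Cxcl10 were the interferon-induced Oas3 at 0.25 and Mnda at 0.26, and nearest to Ccl5 were Ms4a4b at 0.24 and Plbd1 at 0.25. Ccl3 was nearest to Lilrb4 (0.42) and Clec7a (0.46), and Ccl4 to Lgals3 (0.54) and Cst7 (0.60). The distances of Ccl3 and Ccl4 were larger. The spread over the libraries was 1.43 for Ccl3, 1.89 for Ccl4, 1.20 for Cxcl16 and 1.00 for Ccl12. It was 1.99 for Cxcl10 and 1.74 for Ccl5, whose nearest genes were closer than those of Ccl3 and Ccl4. Ccl2 was nearest to Gm4841 (0.59) and Oas3 (0.67), and Cxcl1 to Gm15133 (0.51) and Ch25h (0.53). Among the members themselves, Cxcl10 was the nearest to Ccl2, at 0.68 and in place 6 of all tested genes. Ccl3 was the nearest to Ccl4, at 0.69 and in place 9. Cxcl16 was the nearest to Ccl12, at the smaller distance of 0.43 but in place 122. A place thus depends on how many other genes lie near, and does not rank the likeness of these pairs.

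Other chemokines were read from a list of 29, of which 22 were tested. None passed adjusted p under 0.05 by edgeR in either set. At an unadjusted p under 0.05, 4 were higher in the Adnp set and 5 in the Pogz set, against 6.67% and 4.05% of all tested genes. These counts include genes that passed the filter on low counts only through knockdown libraries. None of the 22 were lower (1.69% and 2.65% of all tested genes), and the median log2 fold changes were 0.96 and 0.82. Fitted values were above 0 for 16 and 14 (47.7% and 46.4% of all tested genes) and below 0 for 6 and 8. Cx3cl1, the most abundant, was named after its values were seen. It averaged 665 CPM and was at -0.01 (SE 0.14) and -0.30 (SE 0.14). The list summed to 935 and 944 CPM in the Adnp-set controls and 925 and 1010.5 in shAdnp. In the Pogz set it summed to 860 and 846 in controls and 829 and 758 in shPogz. Ccl9, a CCR1 ligand, was at 1.75 and 1.94 CPM in the Adnp-set controls, 5.13 and 4.16 in shAdnp, 1.84 and 2.79 in Pogz-set controls, and 3.98 and 4.27 in shPogz. The fitted difference of Ccl9 was 1.33 (SE 0.27) in the Adnp set and 0.81 (SE 0.27) in the Pogz set, in log2 units, and its standard errors were smaller than those of any of the 8 members. Ccl6, a related CC chemokine, had log2 fold changes of 1.88 (SE 0.48) and 0.98 (SE 0.47). Xcl1, which draws cross-presenting dendritic cells, was at 3.72 (SE 1.05) and 3.34 (SE 1.04). Cxcl11, which shares CXCR3 with Cxcl10, was at 1.38 (SE 1.19) in the Adnp set, where groups overlapped, and at 4.42 (SE 1.29) in the Pogz set, from 0.283 and 0.284 CPM in the controls to 2.13 and 10.1 in shPogz.

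A further ligand of CXCR3 and a further ligand of CCR2 were added after their values were seen. Cxcl9, which is induced by interferon gamma, was at 0.425 and 15.0 CPM in the Adnp-set controls, 25.2 and 49.6 in shAdnp, 6.58 and 15.5 in Pogz-set controls, and 30.5 and 102 in shPogz. Its log2 fold changes, 2.28 (SE 1.52) and 2.56 (SE 1.53), had the wide errors seen for Cxcl10. Ccl7 was at 0.0327 and 0.637 CPM in the Adnp-set controls, 0.643 and 2.16 in shAdnp, 0.283 and 0.597 in Pogz-set controls, and 1.68 and 8.04 in shPogz. It thus had its highest level in shPogz replicate 2, as all 8 members did.

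Of 23 listed receptor genes 21 were tested. At an unadjusted p under 0.05, 7 were higher in the Adnp set and 2 in the Pogz set, against 6.67% and 4.05% of all tested genes. The difference between these counts was not tested. None passed the adjusted threshold by edgeR, and the medians were 0.92 and 0.69. Ccr1, a receptor of Ccl3 and Ccl5, was at 0.229 and 0.446 CPM in the Adnp-set controls, 0.834 and 1.80 in shAdnp, 1.13 and 1.93 in Pogz-set controls, and 1.22 and 2.88 in shPogz. The log2 fold change of Ccr1 was 1.95 (SE 0.60) in the Adnp set and 0.39 (SE 0.55) in the Pogz set, the order kept for the genes that follow. Cx3cr1, the fractalkine receptor of microglia, was at 1.01 (SE 0.22) and 0.31 (SE 0.22). The atypical receptor gene Ccrl2 was at 1.09 (SE 0.38) and 1.57 (SE 0.39), and Ccr9, a gut-homing receptor of lymphocytes, at 0.23 (SE 0.66) and 1.48 (SE 0.66). Cxcr2, the receptor of Cxcl1, had 44 counts over all libraries and was highest in the 2 shPogz libraries, at 0.234 and 0.524 CPM. It passed the filter on low counts only through these libraries, so its place among the 2 receptors higher in the Pogz set depends on them. Further receptors of members, added after their values were seen, were at 2.10 (SE 0.92) and 1.08 (SE 0.87) for Ccr2, at 1.46 (SE 0.82) and -0.15 (SE 0.76) for Cxcr3, and at 1.40 (SE 0.56) and 0.69 (SE 0.55) for Cxcr6.

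Upstream genes of chemokine transcription, cytokines, Toll-like receptors and the NF-kB and interferon factors, were read from a list of 24, of which 23 were tested. In the Adnp set 9 and in the Pogz set 11 were higher at an unadjusted p under 0.05, against 6.67% and 4.05% of all tested genes. None were lower (1.69% and 2.65% of all tested genes). None passed the adjusted threshold by edgeR, and the medians were 0.60 and 0.87. Tnf, the cytokine that activates NF-kB, was at 0.131 and 0.446 CPM in the Adnp-set controls, 1.53 and 2.39 in shAdnp, 0.566 and 1.85 in Pogz-set controls, and 2.97 and 8.22 in shPogz. Tnf had fitted log2 fold changes of 2.75 (SE 0.81) and 2.14 (SE 0.73) in the Adnp and Pogz sets, with neither past the adjusted threshold. Il1a, a second such cytokine, was at 1.94 (SE 0.38) and 0.92 (SE 0.37), and the NF-kB subunit gene Nfkb1 at 0.57 (SE 0.19) and 0.39 (SE 0.19). The adaptor gene Myd88, through which Toll-like and interleukin 1 receptors signal, was at 0.56 in both sets (SE 0.20 in each). Il6 differed in sign between the sets, at -1.13 (SE 1.22) and 2.67 (SE 0.89), on 110 counts in all, and its adjusted p for the difference between sets was 0.978. Il6, counted among the 11 higher in the Pogz set, would not have passed the filter on low counts without the shPogz libraries.

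Of 7 genes for proteins that process chemokines or destabilise their mRNA, 2 were higher in the Adnp set at an unadjusted p under 0.05. In the Pogz set 0 were, and the shares of all tested genes were 6.67% (Adnp set) and 4.05% (Pogz set). The medians were 0.70 and 0.35, and no gene passed the adjusted threshold by edgeR. Adam17, which sheds Cxcl16, was at 22.9 and 27.5 CPM in the Adnp-set controls, 47.0 and 35.2 in shAdnp, 31.9 and 35.1 in Pogz-set controls, and 35.4 and 50.4 in shPogz. The fitted log2 fold change was 0.70 (SE 0.20) in the Adnp set and 0.35 (SE 0.20) in the Pogz set. Adam10, the other listed protease that sheds Cxcl16, added after its values were seen, averaged 111 CPM over the 8 libraries and was at -0.10 (SE 0.10) and -0.12 (SE 0.10), with both hairpin libraries below their controls in each set. Mmp2, a matrix protease that trims Ccl7, was at 1.04 (SE 0.30) and 0.28 (SE 0.30). Zfp36, whose product binds AU-rich elements and promotes decay of cytokine and chemokine mRNA, was at 0.72 (SE 0.56) and 1.29 (SE 0.57). Dpp4, a peptidase that truncates Cxcl10, was at 0.14 (SE 0.23) and 0.49 (SE 0.23), and Mmp12 at 2.07 (SE 1.21) and 2.51 (SE 1.43).

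Markers of cells that can make or follow these chemokines also differed between the libraries. The 10 microglia markers summed to 404 and 484 CPM in the Adnp-set controls and 1012 and 719 in shAdnp. They summed to 608 and 639 CPM in Pogz-set controls and 667 and 954 in shPogz. At an unadjusted p under 0.05, 10 of 10 were higher in the Adnp set, against 6.67% of all tested genes. In the Pogz set 0 of 10 were, against 4.05%. The difference between the responses was at an unadjusted p under 0.05 for 2 of these 10 markers, both lower in the Pogz set. Of all tested genes 2.41% were lower in this way. The 10 T and NK cell markers summed to 1.57 and 11.3 CPM in the Adnp-set controls, 11.9 and 31.5 in shAdnp, 12.6 and 24.3 in Pogz-set controls, and 28.3 and 72.2 in shPogz. The 4 monocyte markers summed to 0.883 and 6.48, 5.77 and 15.5, 13.8 and 29.4, and 37.3 and 100.4 CPM in the same order. Within each group the replicate with the higher T and NK cell sum and the higher monocyte sum was also the replicate with the higher chemokine sum, and the same held for the border macrophage sum. This was replicate 2 in every group. The order failed in at least 1 group for every other marker list. In shAdnp, for example, microglia markers were at 1012 and 719 CPM and reactive astrocyte genes at 1060 and 550. T cell receptor complex genes Cd3d, Cd3e and Cd3g and the monocyte gene Chi3l3 were at 0 in at least 1 library. Reactive astrocyte genes summed to 147 to 267 CPM in the Adnp-set controls, 550 to 1060 in shAdnp, 435 to 500 in Pogz-set controls and 461 to 687 in shPogz.

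The part of these cell types in the chemokine levels was not tested. The 5 neutrophil markers found summed to 0.468 to 1.70 CPM in all 8 libraries, and their median log2 fold changes were -0.58 and -0.56. At an unadjusted p under 0.05, 0 of 5 were higher in either set, against 6.67% (Adnp set) and 4.05% (Pogz set) of all tested genes. The 4 B cell markers separated the sets rather than the hairpins, at 0.507 to 2.28 CPM in the 4 libraries of the Adnp set and 6.79 to 12.3 in those of the Pogz set. Endothelial markers summed to 213 to 298 CPM and border macrophage markers to 17.1 to 30.7, and meningeal markers ran from 74.3 to 78.2 in the Adnp-set controls, 150.9 to 151.6 in shAdnp, 78.3 to 120.4 in Pogz-set controls and 125.5 to 141.0 in shPogz. Of the 5 meningeal markers 5 were higher in the Adnp set at an unadjusted p under 0.05, against 6.67% of all tested genes. In the Pogz set 0 were higher, against 4.05% of all tested genes. There 1, Igf2, was lower (log2 fold change -0.39, SE 0.17), against 2.65%. The tissue label was met by neuronal markers, which summed to 5206 to 7596 CPM, and by cortical neuron markers, at 282 to 433. Both sums were lowest in shPogz replicate 2. The astrocyte marker sum was also lowest there, at 3305 CPM against 3894 to 5245 in the other libraries. The oligodendrocyte marker sum was highest there, at 3538 CPM against 1630 to 3399. The 3 striatal markers summed to 30.2 and 35.1 CPM in the Adnp-set controls, 36.8 and 15.9 in shAdnp, 27.1 and 30.4 in Pogz-set controls, and 35.6 and 58.3 in shPogz, so the shPogz library with the most chemokine RNA also had the most of these. In the Pogz set 2 of the 3 were higher at an unadjusted p under 0.05, beside 4.05% of all tested genes. The 2 were the dopamine receptor gene Drd2 (log2 fold change 1.65, SE 0.47) and the adenosine receptor gene Adora2a (1.40, SE 0.52). In the Adnp set 0 of 3 were higher, beside 6.67% of all tested genes. The part of the striatal markers in the chemokine levels was not tested. No meningeal or striatal marker passed the adjusted threshold by edgeR, and Igf2 and Drd2 were named after their values were seen. The 4 red blood cell markers summed to 52.4 to 74.8 CPM, of which the beta-globin gene Beta-s gave 45.1 to 67.0, while Hba-a1 and Hba-a2 were at 0 in all libraries.

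**Figure D5:**
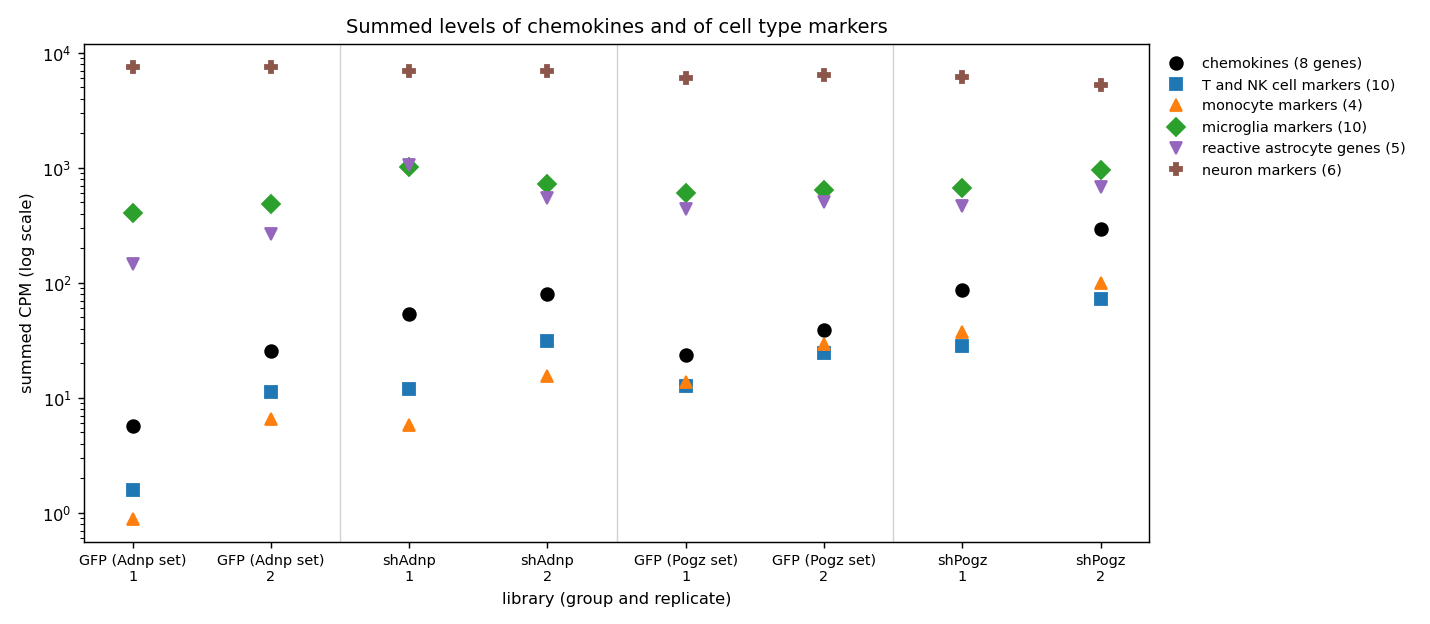
Summed CPM (y axis, log scale) of the 8 chemokines and of marker lists of 5 cell types in each library (x axis, group and replicate). Chemokine, T and NK cell and monocyte sums are all highest in shPogz replicate 2 and lowest in Adnp-set GFP replicate 1. Neuron markers range from 5206 in shPogz replicate 2 to 7596 in Adnp-set GFP replicate 1.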

How the data were processed

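RNA sequencing libraries were made from ribosome-depleted total RNA with a strand-specific kit, per the labels' protocols, which also name Cutadapt and TopHat2 against RefSeq transcripts. STAR, featureCounts, DESeq2 and build mm10 are listed in the submitters' processing notes. The sources used here give neither versions nor the strand setting of the counting. Each deposited file holds whole read counts for every gene symbol, not normalized by the authors. In each library 25 symbols had become calendar numbers (0.306% to 0.337% of counts) and 2 were blank, and these were left out, leaving 23393 genes.

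Total counts in named genes were 27501722 to 69002749 per library. No 2 libraries agreed within counting noise (chi-square divided by its degrees of freedom 15.0 to 394). The labels call the samples biological duplicates, the design text speaks of 3 knockdown and 2 control mice, and the header of shPogz replicate 2 carries the number 3. Whether a library is 1 mouse is not given, so p-values measure the spread between these libraries.

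Counts were fitted in R 4.3.3 with edgeR 4.0.16 (filterByExpr by group, minimum count 10, 17415 genes kept, TMM scaling, robust quasi-likelihood F test, 4 residual degrees of freedom, common biological coefficient of variation 0.171). All 8 libraries entered 1 fit with 1 mean per group, and both hairpins together came from an additive fit of set and knockdown. Benjamini-Hochberg adjustment ran over the 17415 genes, with a threshold of 0.05, and 5 comparisons were made. The fit was also run on simulated counts that gave every gene the common spread. Such counts cannot show how the fit performs for genes that vary more between replicates, as many of the members did. SE is the log2 fold change divided by the square root of F. Exon lengths come from GENCODE M21 and promoter windows from RefSeq GRCm38.p6. Alternatives were DESeq2 1.42.0, limma-voom (limma 3.58.1), other scalings, filters and thresholds, only the libraries compared, all 4 GFP libraries as controls, a replicate block and each library left out.

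The 8 members, the gene lists and the tests were chosen with earlier results of these data known, so no list is independent evidence. Named genes are the 8 members, Adnp, Pogz and Ash1l, from the lists of other chemokines, receptors, inducers and processing the 3 with the smallest p in each set, the 2 most abundant of each marker list (described by sums), and the 2 genes nearest to each member. Genes added later are marked, and 1 gene that the rule gives is not reported here. Older symbols in the files were matched to current ones (for example Chi3l3 for Chil3). Ash1l, which the treatment label names, was at a log2 fold change of -0.10 (SE 0.14) in shAdnp and 0.11 (SE 0.14) in shPogz.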

Additional observations from a re-analysis of the deposited data

How the results depend on the processing

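Counts of calls depended on the tool. With DESeq2, 420 genes (3 members: Ccl3, Ccl4 and Ccl12) passed in the Adnp set, 100 (4 members: those and Ccl2) in the Pogz set, 711 (6 members) for both hairpins, 2 for the difference between responses and 73 between the control pairs, against 0, 0, 0, 0 and 1 with edgeR. The control pairs differed in 6 genes at an adjusted p under 0.10 and in 6 with no low-count filter. The correlation of same-numbered deviations across genes was -0.0085 in the Adnp set and 0.047 in the Pogz set. These values showed no pairing by replicate number over all tested genes, but cannot settle whether samples were paired. With the replicate number as a block, which left 2 residual degrees of freedom, 175 genes and 2 members (Ccl2, Cxcl16) passed in the Adnp set, 31 and 1 (Ccl2) in the Pogz set, and 440 and 5 for both hairpins.

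With each library left out in turn, genes called ran from 0 to 8 in the Adnp set (8 without shAdnp replicate 1), 0 to 153 in the Pogz set and 0 to 556 for both hairpins (153 and 556 without shPogz replicate 1), 0 to 4 for the difference and 0 to 6 between control pairs. Members called ran from 0 to 3 in the Pogz set and 0 to 4 for both hairpins, and were 0 in the Adnp set. The median of the members ran from 1.47 to 4.25 in the Adnp set and from 1.74 to 3.72 in the Pogz set. Without both Adnp-set GFP replicate 1 and shPogz replicate 2, an alternative chosen after seeing the data, 2 genes passed for both hairpins.

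No member changed sign in the Pogz set or for both hairpins under any alternative run. In the Adnp set only Cxcl1 did, to -0.63 without GFP replicate 1 and -0.25 without shAdnp replicate 2, against 6.45 without GFP replicate 2. The difference between responses changed sign for 7 members, all but Ccl2. With all 4 GFP libraries as controls, the controls cancel out, and the fit gives shPogz minus shAdnp directly, with the difference between sets included. That value was 0.37 for Ccl3, 1.52 for Ccl5 and 0.58 for Cxcl16, and is not the same quantity. With limma-voom the difference between responses was -0.48 for Ccl4. With 1 library left out it ran from -1.74 to 0.41 for Ccl3, -1.30 to 1.09 for Ccl4, -2.64 to 0.67 for Ccl5, -0.53 to 0.82 for Ccl12, -2.59 to 7.53 for Cxcl1, -1.25 to 2.34 for Cxcl10 and -1.504 to 0.051 for Cxcl16. Between the control pairs, values with 1 library left out ran from -0.25 to 1.89 for Ccl4, -0.084 to 1.10 for Ccl12, -0.27 to 3.30 for Cxcl10 and -6.06 to 4.02 for Cxcl1. The cause of these changes was not tested beyond the library left out. Cxcl1 had no value under the filter of at least 1 CPM in 2 libraries.

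With 2 libraries per group the fit rests on a spread shared across genes. Each hairpin was compared with the GFP controls of its own set. Where the responses to the hairpins are compared, hairpin, set and any difference in handling of the sets cannot be told apart.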
